A study of Mus musculus with 8 samples.

Results

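The genes described here are 35 mouse genes that encode the contractile, calcium-handling and energy proteins of skeletal muscle, measured by RNA-Seq in lung tissue. They were picked by symbol from the 23469 genes of the count table, with the comparison of PBS-treated DDAH1-transgenic and wild type lungs already known. The difference between those PBS-treated libraries is thus part of how the genes were picked, and it is given here as a description that supports nothing. All 35 genes were found in the table by their Entrez identifiers, and 34 of them had at least 1 count. The exception was Tnni1, the slow skeletal muscle form of troponin I, which had 0 counts in all 8 libraries.

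The lungs came from C57BL/6 mice, either wild type (WT) or transgenic (TG) for DDAH1, dimethylarginine dimethylaminohydrolase 1, which the TG mice were made to overexpress. Mice of each genotype received 50 µl of PBS into the trachea, with or without 100 µg of house dust mite extract (HDM), with 3 challenges in each of 3 weeks, and lungs were taken 24 hours after the last challenge. Each of the 4 groups was 1 pool of RNA from 4 mice, read in 2 libraries, so every SD and SE below is a spread between libraries of 1 pool and holds no variation between mice. The names used below are library labels, WP1 and WP2 for WT PBS, WH1 and WH2 for WT HDM, TP1 and TP2 for TG PBS, and TH1 and TH2 for TG HDM. The ages of the mice and the promoter and species of the transgene are not given in the sources used here.

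The 8 libraries held between 5694928 and 11929374 counts, the fewest in TH1. Sftpc, the surfactant protein of alveolar type 2 cells, had 52608 to 149473 counts, so that lung was well represented in each library. Mouse Ddah1 had 475 and 420 counts in WP, 771 and 509 in TP, 482 and 445 in WH, and 233 and 431 in TH. Its log2 fold change was 0.66 ± 0.26 (SE; edgeR quasi-likelihood test, adjusted p = 0.358) for TP against WP and -0.32 ± 0.29 (adjusted p = 0.637) for TH against WH, so that under HDM it went against the genotype label. The X-linked Xist had 113 to 197 counts in the PBS libraries and 20303 to 31372 in the HDM libraries, and the Y-linked Ddx3y had 621 to 719 and 2 to 3, respectively. Treatment and the sex of the pooled mice therefore cannot be told apart, and differences between HDM and PBS libraries are given as values only.

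Skeletal muscle contracts when myosin heavy chains of the thick filament pull on actin in the thin filament, within a repeating unit, the sarcomere, that is held between Z-discs. Calcium released from the sarcoplasmic reticulum binds troponin and lets the filaments interact, and a calcium pump then returns it. Fast, slow, embryonic and perinatal muscle fibres use different members of the same gene families, and heart muscle shares some of them. Lung parenchyma itself has smooth muscle but no skeletal muscle fibres.

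The 5 myosin heavy chain genes among the members carry the main pattern of these data, so their sequences are shown first. They lie in 1 cluster on chromosome 11 (mm10), from the start of Myh3 at 67078273 to the end of Myh8 at 67308634, and their coding lengths are 5811 to 5826 bases. Their coding sequences were 87.9% to 91.0% identical among Myh1, Myh2, Myh4 and Myh8, and 80.2% to 81.0% identical between Myh3 and each of the others. The following 50 bases, the length of a sequencing read in the study, are a stretch of an early coding exon, and capitals mark the positions at which the 5 genes differ. In 3933 such windows the median number of differing positions was 13, the number found in this window.
Myh4 (chr11:67240659-67240708, + strand): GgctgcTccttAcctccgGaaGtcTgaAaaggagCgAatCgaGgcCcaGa
Myh1 (chr11:67201917-67201966, + strand): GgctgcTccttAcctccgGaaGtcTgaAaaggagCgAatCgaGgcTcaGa
Myh2 (chr11:67173151-67173200, + strand): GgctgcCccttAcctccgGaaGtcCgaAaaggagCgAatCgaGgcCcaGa
Myh8 (chr11:67278898-67278947, + strand): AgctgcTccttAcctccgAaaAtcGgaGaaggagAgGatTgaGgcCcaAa
Myh3 (chr11:67080034-67080083, + strand): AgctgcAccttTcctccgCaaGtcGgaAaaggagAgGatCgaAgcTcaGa
Within this window Myh4 differed from Myh8 at 9 bases, from Myh2 at 2 and from Myh1 at 1. Of all 50-base stretches of coding sequence, 19.6% in Myh4, 22.7% in Myh8, 28.6% in Myh2, 31.6% in Myh1 and 4.99% in Myh3 also occurred in a transcript of another gene. How the counting treated reads that fit several genes is not given in the sources used here, so the counts of these genes are uncertain to that extent. Exons of 12 members, Myh1 and Myh2 among them, overlap those of another gene on the opposite strand. Both strands were searched for these and later shares of 50-base stretches, so such overlaps can be part of them.

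The 250 bases before the transcription start of 4 of these genes are shown because they were at very different levels in the same libraries (RefSeq, GRCm38.p6, strand + for each). Capitals mark the match to the consensus of MEF2, a family of transcription factors of striated muscle.
Myh4 (chr11:67237562-67237811, + strand): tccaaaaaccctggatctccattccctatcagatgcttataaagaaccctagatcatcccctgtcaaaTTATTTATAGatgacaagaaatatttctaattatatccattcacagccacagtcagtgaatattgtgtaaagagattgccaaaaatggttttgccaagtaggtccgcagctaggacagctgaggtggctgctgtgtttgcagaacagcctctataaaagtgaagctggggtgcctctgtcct
Myh8 (chr11:67276874-67277123, + strand): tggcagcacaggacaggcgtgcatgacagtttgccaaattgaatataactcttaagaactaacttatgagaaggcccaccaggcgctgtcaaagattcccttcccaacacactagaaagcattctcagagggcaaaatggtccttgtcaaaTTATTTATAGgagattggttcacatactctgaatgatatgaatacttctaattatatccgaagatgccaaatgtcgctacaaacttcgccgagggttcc
Myh1 (chr11:67199852-67200101, + strand): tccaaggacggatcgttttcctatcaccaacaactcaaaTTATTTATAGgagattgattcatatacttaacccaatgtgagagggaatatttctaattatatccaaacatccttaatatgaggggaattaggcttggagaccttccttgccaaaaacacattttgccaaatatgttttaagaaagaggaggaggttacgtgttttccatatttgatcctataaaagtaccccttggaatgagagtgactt
Myh2 (chr11:67170777-67171026, + strand): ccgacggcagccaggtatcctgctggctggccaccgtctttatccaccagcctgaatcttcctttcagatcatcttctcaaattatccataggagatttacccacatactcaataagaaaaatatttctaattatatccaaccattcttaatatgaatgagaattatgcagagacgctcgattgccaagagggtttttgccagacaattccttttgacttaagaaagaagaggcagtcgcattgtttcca
The MEF2 consensus began 182 bases before the start in Myh4, 99 in Myh8 and 211 in Myh1, and these letters were not found in the window of Myh2. Promoter sequence was at hand for 27 of the 35 members, and 7 of them (Myh1, Myh4, Myh8, Ttn, Xirp2, Klhl41 and Pvalb) held the MEF2 consensus on either strand, beside 2.92% of all 32851 promoters. The E-box CANNTG was in 23 of the 27, beside 66.2% of all promoters. The M-CAT element CATTCC was in 7, beside 12.6%, and the CArG box consensus in 2, beside 1.47%. TATAAA on the sense strand was in 5, beside 7.59%. The patterns rich in A and T can share bases, and a match is a description of the letters and not of binding.

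The 5 myosin heavy chain genes were nearly absent from WP and present in the other 3 groups, but not in the same proportions. Myh4, the heavy chain of the fastest (2B) fibres, had 6 and 15 counts in WP1 and WP2, 718 and 751 in TP1 and TP2, 128 and 151 in WH1 and WH2, and 56 and 105 in TH1 and TH2. Myh8, the perinatal heavy chain, had 1 and 2 counts in WP, 108 and 170 in TP, 1039 and 713 in WH, and 324 and 671 in TH. TP thus held the highest Myh4 counts and WH the highest Myh8 counts, and neither pair overlapped any other library. In bulk tissue, fewer cells of a type and less RNA per cell cannot be told apart.

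Myh1, the 2X heavy chain of fast fibres, had 2 and 5 counts in WP, 220 and 170 in TP, 310 and 342 in WH, and 85 and 251 in TH. Myh2, the 2A heavy chain, had 0 and 2 in WP, 152 and 136 in TP, 137 and 185 in WH, and 49 and 92 in TH. Myh3, the embryonic heavy chain, had 0 counts in both WP libraries, 18 and 15 in TP, 32 and 26 in WH, and 16 and 7 in TH. Each of these genes had fewer counts in WP than in any library of the other groups. The mean levels of Myh4 in CPM (counts scaled to a common library size by TMM over the 8 libraries) were 75.6 ± 5.22 in TP (SD, n = 2), 13.3 ± 2.64 in WH, 8.25 ± 0.150 in TH and 0.913 ± 0.441 in WP. Those of Myh8 were 14.4 ± 5.04 in TP, 82.3 ± 15.0 in WH, 50.2 ± 2.61 in TH and 0.132 ± 0.0447 in WP.

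As shares of the counts of these 5 genes, Myh4 made up 59.0% of TP1 and 60.5% of TP2 (exact 95% intervals 56.2% to 61.8% and 57.7% to 63.2%; these and later intervals cover counting error only). In the HDM libraries Myh4 made up 7.78% of WH1, 10.7% of WH2, 10.6% of TH1 and 9.33% of TH2. Myh8 made up 8.88% of TP1 and 13.7% of TP2, but 63.1% of WH1, 50.3% of WH2, 61.1% of TH1 and 59.6% of TH2. The myosin mix of the HDM-treated libraries was led by the perinatal form in both genotypes, and that of TP by the fast 2B form. In WP, where the 5 genes had 9 and 24 counts, Myh4 made up 66.7% (29.9% to 92.5%) and 62.5% (40.6% to 81.2%). Myh1 ranged from 13.7% to 24.1% and Myh2 from 0% to 13.1% over the 8 libraries.

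**Figure D1:**
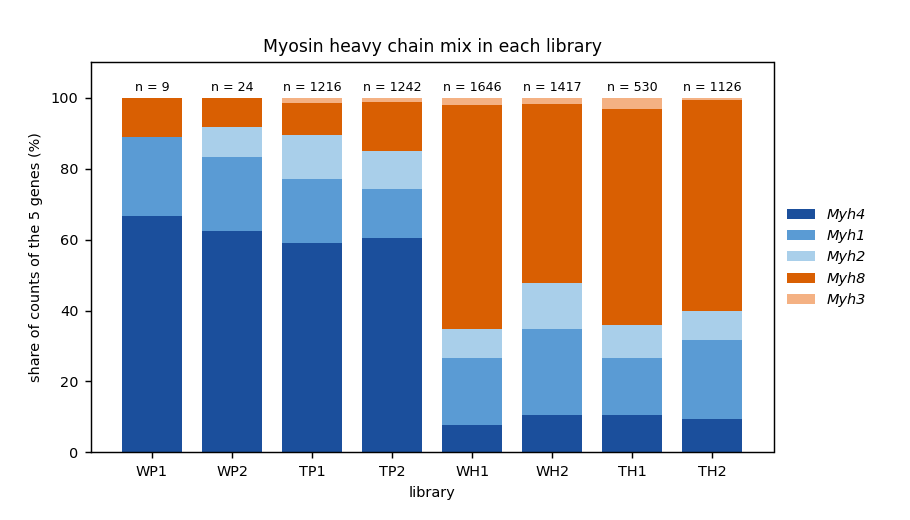
Share of the counts of 5 myosin heavy chain genes (y axis, %) in each library (x axis), with the number of counts above each bar. Myh4 makes up 59.0% to 66.7% of the PBS-treated libraries, and Myh8 makes up 50.3% to 63.1% of the HDM-treated ones.

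The 13 fast-form members, which include Myh1, Myh2 and Myh4, summed to 6.31 and 8.33 CPM in WP, 221 and 249 in TP, 113 and 111 in WH, and 95.2 and 104 in TH. Myh3 and Myh8 together came to at most 0.163 CPM in WP, 12.6 and 19.5 in TP, 95.8 and 74.3 in WH, and 50.7 and 52.6 in TH. The libraries of TP were highest in the fast forms and those of WH in the developmental forms, which are both heavy chains. Without the 3 heavy chains, the other 10 fast forms summed to 5.51 and 6.54 CPM in WP, 112 and 138 in TP, 61.8 and 42.9 in WH, and 66.8 and 69.7 in TH, so that TP was again highest and WP lowest. The 3 slow-form members stayed at 5.91 CPM or less in every library.

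The fast partner outweighed the slow partner in troponins I and T. Tnni2, fast troponin I, which keeps actin and myosin apart at rest, had 2 and 0 counts in WP, 47 and 4 in TP, 20 and 3 in WH, and 63 and 44 in TH, whereas the slow Tnni1 had none. The 0 of Tnni1 beside 107 counts of Tnni2 in TH allows a slow share of up to 2.80% (3 counts of the total). Tnnt3, fast troponin T, which anchors troponin to tropomyosin, had 3 and 10 counts in WP, 301 and 181 in TP, 77 and 98 in WH, and 22 and 158 in TH. Its slow partner Tnnt1 had 6 counts in TP1, 3 in WH1 and 0 in the other libraries, which was 1.23% of the pair in TP (0.453% to 2.66%). The libraries of 1 pool differed widely for Tnni2 in TP and WH and for Tnnt3 in TH.

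Among the other paired forms, the fast side was clear only in part. Actn3, the alpha-actinin of fast fibres, had 6 and 2 counts in WP, 73 and 120 in TP, 15 and 54 in WH, and 4 and 38 in TH. Actn2, the alpha-actinin that anchors actin at the Z-disc in slow fibres and heart, had 56 and 113 in WP, 44 and 79 in TP, 167 and 44 in WH, and 8 and 117 in TH. Actn3 was 61.1% of the pair in TP (55.5% to 66.5%), 24.6% in WH, 25.1% in TH and 4.52% in WP. Mybpc2 and Mybpc1, the fast and slow forms of myosin binding protein C, had 100 and 61 counts in TP, 79 and 47 in WH, 26 and 47 in TH, and 24 and 0 in WP, each summed over both libraries. The libraries of 1 pool spread widely for these genes, with Mybpc2 at 72 and 7 in WH and Mybpc1 at 53 and 8 in TP.

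In the thin filament, Acta1, the skeletal muscle actin, was the highest member per coding kilobase in 3 of the 4 groups, at 89.5 CPM per kilobase in WH, 50.7 in TP and 51.5 in TH, and ranked second in WP at 34.1. Its counts were 390 and 467 in WP, 536 and 578 in TP, 1115 and 1021 in WH, and 379 and 774 in TH. Unlike the fast forms, it was thus well above 0 in WP, and WH was highest. Tnnc2, fast troponin C, the calcium sensor, had 1 and 0 counts in WP, 179 and 48 in TP, 46 and 47 in WH, and 147 and 172 in TH. Its slow and cardiac partner Tnnc1 had 51 and 14 counts in WP, 12 and 1 in TP, 0 and 43 in WH, and 11 and 19 in TH, so that in WP the slow form was the higher. Of the 50-base stretches of Tnnc2, 60.1% also occurred in a transcript of another gene, and its exons overlap Ube2c on the other strand, so this count is uncertain. Neb, the giant ruler of the thin filament, had 89 and 132 counts in WP, 1040 and 962 in TP, 884 and 936 in WH, and 325 and 721 in TH.

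The regulatory light chain Mylpf, which sits on the myosin neck of fast fibres, had 1 and 14 counts in WP, 90 in each TP library, 151 and 108 in WH, and 113 and 294 in TH. The essential light chain Myl1 had 12 and 37 in WP, 65 and 233 in TP, 40 and 20 in WH, and 18 and 31 in TH. Mylpf was thus low in WP only, and Myl1 was high in TP only. Of the 50-base stretches of Myl1, 60.3% also occurred in a transcript of another gene.

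Ttn, the giant spring that spans from Z-disc to mid-sarcomere in skeletal muscle and heart, had the most counts of all members, 3341 and 4050 in WP, 5224 and 4151 in TP, 3885 and 3422 in WH, and 1685 and 3819 in TH. Its levels lay between 251 and 523 CPM in all libraries and did not follow the near absence of the fast forms in WP. Klhl41, a kelch protein that protects nebulin, was, unlike the fast forms, higher in WP than in WH or TP, with 1504 and 1358 counts in WP, 812 and 949 in TP, 949 and 1049 in WH, and 325 and 590 in TH. It was the only member whose mean level was highest in WP. Myot, a Z-disc protein, had 0 and 2 counts in WP and 15 to 68 elsewhere, and Myoz1, the calsarcin of fast fibres, had at most 15 in any library. Xirp2, Tcap and Smpx, which bind actin or the Z-disc and costamere, ranged over 64 to 362, 3 to 50 and 3 to 66 counts.

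Among the calcium genes, Atp2a1, the sarcoplasmic reticulum pump SERCA1 of fast fibres, had 8 and 13 counts in WP, 306 and 504 in TP, 251 and 82 in WH, and 59 and 114 in TH. Pvalb, parvalbumin, the soluble calcium buffer of fast fibres, had 1 in each WP library, 31 and 50 in TP, 13 and 8 in WH, and 6 and 15 in TH. For both genes the TP libraries were the highest of all 8. Of the 50-base stretches of Atp2a1, 13.8% also occurred in a transcript of another gene, and its exons overlap Rabep2 on the other strand. The release channel Ryr1 had 6 to 80 counts, its voltage sensor Cacna1s 3 to 41, the calcium store protein Casq1 0 to 18 and Trdn, which tethers the store to the channel, 12 to 71.

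Of the energy genes, only Ckm, the muscle creatine kinase that buffers ATP, showed the low level in WP. Its counts were 11 and 42 in WP, 211 and 214 in TP, 224 and 195 in WH, and 61 and 92 in TH. Of the 50-base stretches of Ckm, 25.7% also occurred in a transcript of another gene, and its exons overlap A930016O22Rik on the other strand. Mb, the oxygen store myoglobin shared with heart, had 51 and 57 in WP, 36 and 75 in TP, 74 and 55 in WH, and 29 and 83 in TH. The groups overlapped for Mb, except that both WH libraries (6.62 and 5.53 CPM) lay above both WP libraries (5.11 and 4.66 CPM). Eno3, the muscle enolase, had 35 to 160 counts, and Pygm, the muscle glycogen phosphorylase, had 52 to 140.

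**Figure D2:**
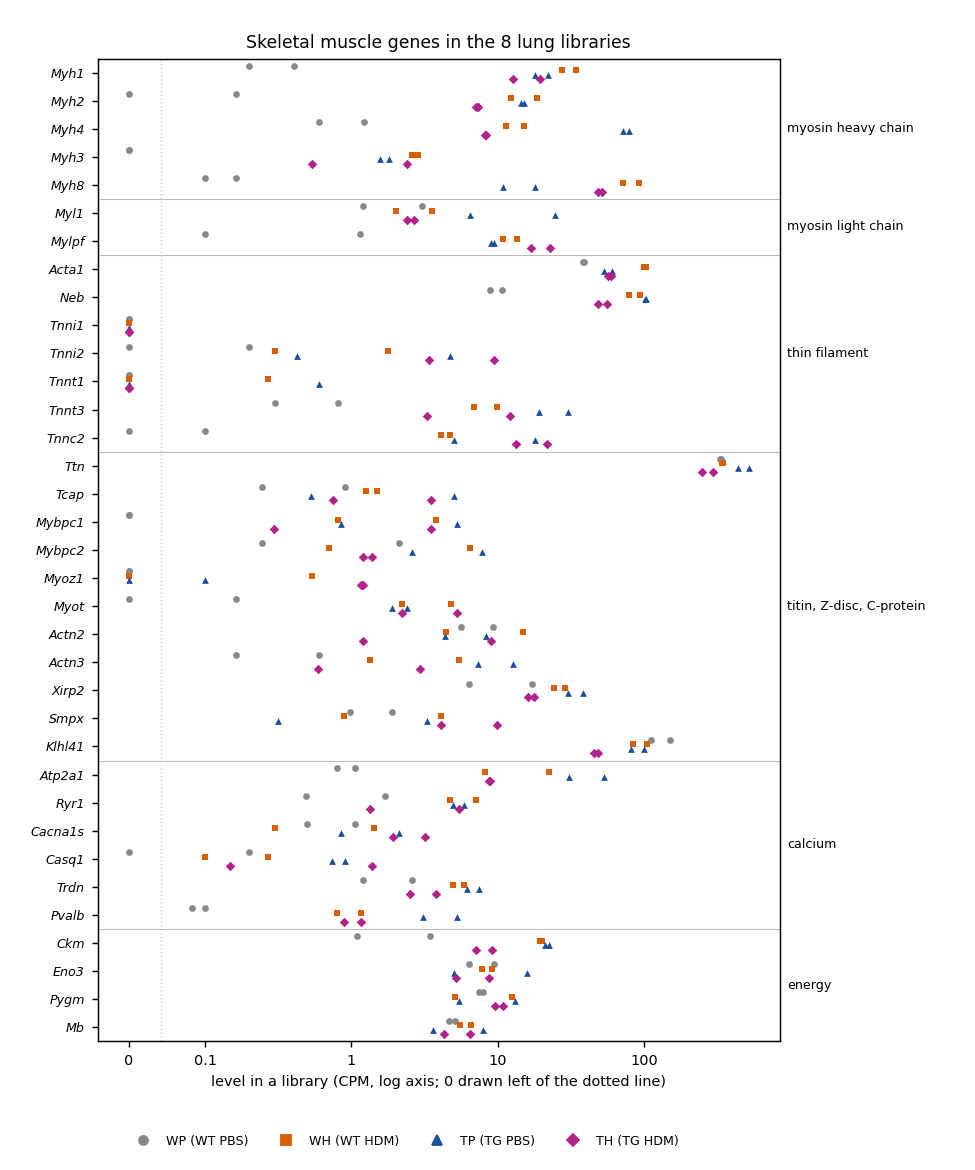
Level of each of the 35 genes in each library (x axis, CPM on a log axis, with 0 drawn to the left of the dotted line), grouped by role, with 2 points per group. The grey WP points lie apart to the left for Myh1, Myh2, Myh4, Myh3 and Myh8 and within the other groups for Mb, Eno3 and Pygm.

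The PBS-treated libraries, which played a part in picking the genes, gave the following differences. In TP against WP, 29 of the 35 genes passed the filter on low counts, 27 of them higher and 2 (Actn2 and Klhl41) lower, and the median of their log2 fold changes was 2.85 beside 0.001 over all genes tested. Of these, 11 members passed the threshold, all higher, beside 0.281% of all genes, and nothing is read from this. A member that was high in TP alone could pass the filter through that group, and 6 members (Tnni1, Tnni2, Tnnt1, Mybpc1, Myoz1 and Casq1) did not pass it. The ratio of TP to WP was 79.8 for Myh4 (exact 95% counting interval 52.0 to 129), 44.0 for Atp2a1 (28.6 to 71.5), 42.3 for Tnnt3 (24.5 to 80.1) and 10.3 for Neb (8.99 to 11.9). With 1 to 3 counts in WP, it was 164 for Myh2 (45.1 to 1364), 106 for Myh8 (35.8 to 516) and 46.2 for Pvalb (12.4 to 388). Myh3, at 0 in WP, was at least 12.6-fold higher in TP, against a floor of 3 counts over the group. Near the other end, the ratio was 1.17 for Mb (0.892 to 1.54) and 0.702 for Klhl41 (0.661 to 0.745).

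The remaining question was whether the genes differed between the genotypes under HDM. Its 4 libraries lie outside the PBS comparison that was known when the genes were picked. In TH against WH, 32 members were tested, 10 higher and 22 lower in TH, and the median of their log2 fold changes was -0.45 beside 0.01 over all genes. With edgeR's quasi-likelihood test, 0 of the 32 passed an adjusted p of 0.05, beside 370 of 15191 genes in all (2.44%; 1.84% higher and 0.599% lower). At an unadjusted p under 0.05 there were 8 members, 6 of them lower, beside 2468 of the 15191 genes. DESeq2 called 3 members, beside 922 of the 15191 genes. These were Acta1 and Klhl41, lower, and Tnnc2, higher, with adjusted p = 0.035, 0.00846 and 0.0111. DESeq2 gave no adjusted p for 15 of the 32 members. Both TH libraries lay below both WH libraries for 12 members, beside 25.1% of all genes, and above them for 5, beside 23.1%. Tnni1, Tnnt1 and Casq1 had too few counts for the test. Leaving out 1 library moved these summaries, the count over all genes from 6 (without WH1) or 20 (without WH2) to 612 (without TH1) or 1595 (without TH2), and the members' median from -0.14 (without TH1) to -0.71 (without TH2).

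All 5 heavy chains had lower means in TH than in WH and their libraries did not overlap, while none passed the test. The mean level of Myh8 was 50.2 ± 2.61 CPM in TH and 82.3 ± 15.0 in WH (log2 fold change -0.67 ± 0.26 SE, adjusted p = 0.216). That of Myh1 was 16.1 ± 4.79 and 31.1 ± 4.71 (-0.91 ± 0.38, adjusted p = 0.263), and that of Myh4 was 8.25 ± 0.150 and 13.3 ± 2.64 (-0.65 ± 0.49, adjusted p = 0.564). Myh2 and Myh3 had log2 fold changes of -1.05 ± 0.50 (adjusted p = 0.324) and -0.88 ± 1.16 (adjusted p = 0.763). The order of the heavy chains was thus similar in both genotypes under HDM, with Myh8 first, Myh1 second and Myh3 last.

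Outside the heavy chains, Klhl41 and Tnnc2 came nearest to the threshold. Klhl41 was at 47.1 ± 1.93 CPM in TH and 95.2 ± 14.6 in WH (log2 fold change -0.97 ± 0.25, adjusted p = 0.0707), and Tnnc2 at 17.6 ± 6.07 and 4.42 ± 0.432 (2.04 ± 0.53, adjusted p = 0.0728). The adjusted p of Klhl41 was 0.00846 to 0.503 over 12 alternative settings, and that of Tnnc2 0.00597 to 0.402. Acta1 differed by -0.75 ± 0.23 on the log2 scale (adjusted p = 0.124; 0.0155 to 0.525 over the settings), Neb by -0.69 ± 0.25 (adjusted p = 0.19), Ckm by -1.25 ± 0.45 (adjusted p = 0.19) and Ttn by -0.30 ± 0.18 (adjusted p = 0.449). Tnni2 differed by 2.63 ± 1.07 (adjusted p = 0.247), with TH1 and TH2 both above WH, whose libraries themselves differed at 20 and 3 counts. Atp2a1 differed by -0.76 ± 0.55 (adjusted p = 0.54), and turned to 0.12 without WH1. The other 19 tested members had log2 fold changes between -1.41 and 2.10 and adjusted p of at least 0.422. Without TH2 the test called 4 members (Tnni2 and Tnnc2 higher, Actn2 and Klhl41 lower), and without TH1 it called Klhl41 alone.

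**Figure D3:**
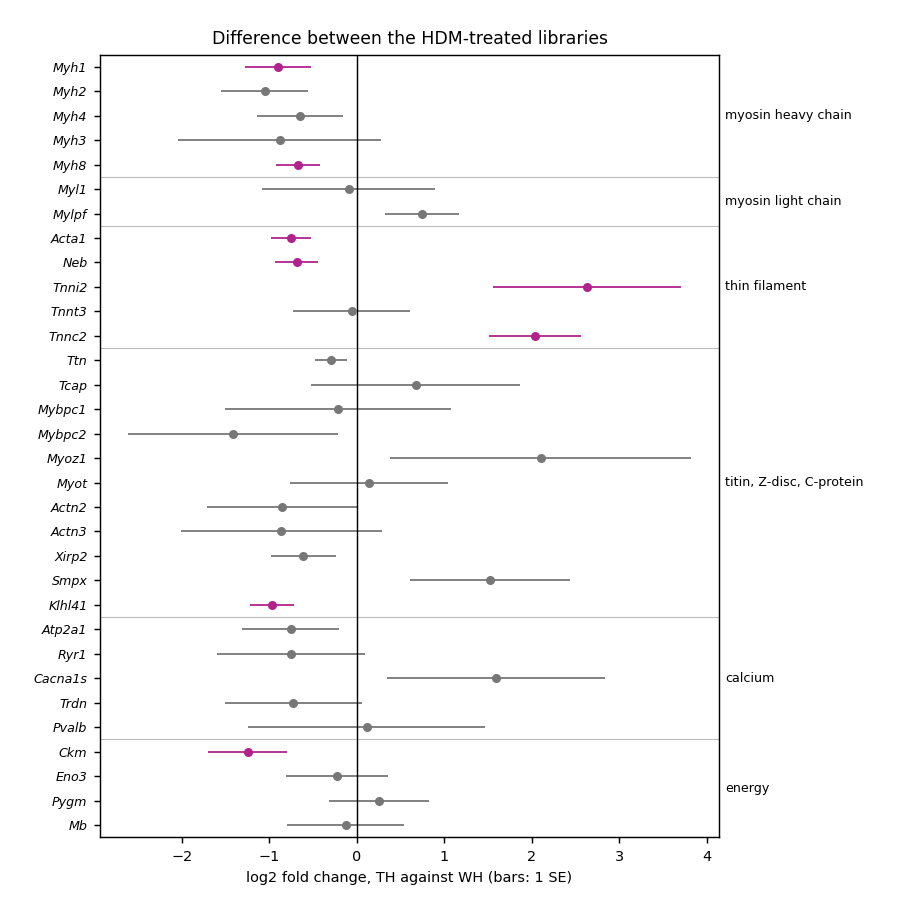
Log2 fold change of TH against WH (x axis; bars are 1 SE, 2 libraries per group) for the 32 tested members, grouped by role, with those at an unadjusted p under 0.05 in purple. All 5 heavy chains lie left of 0, Tnni2 (2.63) and Tnnc2 (2.04) lie to the right, and 0 of the 32 passed the adjusted threshold.

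The comparisons of treatment share libraries with those above, and their values are set side by side. Each uses WP or TP, the libraries that had a part in picking the genes. Low values in WP and high values in TP thus partly follow from that choice. The counts below are descriptions, and nothing is read from them. In WH against WP, 28 members were tested, their median on the log2 scale was 2.03, and 20 of them were higher without overlap of the libraries, beside 25.3% of all genes. In TH against TP, 32 were tested, with a median of -0.60, and 14 were lower without overlap, beside 28.2%. Myh8 was 9.13 ± 0.46 higher on the log2 scale in WH than in WP and 1.83 ± 0.36 higher in TH than in TP. Myh4 was 3.83 ± 0.66 higher in WH than in WP and was at -3.17 ± 0.32 in TH against TP. Over the 4 groups, the mean level was highest in TP for 17 members, in WH for 8, in TH for 8 and in WP for 1, and lowest in WP for 29.

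The other genes of muscle, from lists that hold no member, did not pass edgeR's test in either genotype comparison. Under HDM, 0 of 24 tested contractile genes, 0 of 10 of calcium handling and excitation, 0 of 13 of energy metabolism, 0 of 6 regulators and 0 of 5 junction and membrane genes passed it by edgeR (4, 0, 3, 1 and 0 at an unadjusted p under 0.05). Under PBS, 0 of 23, 0 of 8, 0 of 15, 0 of 6 and 0 of 5 passed it (5, 0, 1, 0 and 0 at an unadjusted p under 0.05). Of the 23 contractile genes under PBS, 12 were higher and 11 lower in TP. Over all genes under PBS, 0.281% passed edgeR's test higher and 0.375% lower. The shares of all genes at that unadjusted p and by DESeq2 are not given here for PBS. Over all genes under HDM, 2468 of 15191 were at an unadjusted p under 0.05, and DESeq2 called 922. DESeq2, which under HDM gave an adjusted p to 9, 2, 6, 5 and 4 genes of these lists, called 3, the tropomyosins Tpm1 and Tpm2, which lie along the actin filament, and Gpd1, a glycerol phosphate dehydrogenase, all lower in TH, and under PBS it called 1, Tpm1, higher in TP. Of 5 slow or cardiac partners of the members, 0 of 4 tested passed edgeR's test under HDM and 0 of 3 under PBS (1 and 1 at an unadjusted p under 0.05), and DESeq2 called 0 of the 2 and 3 to which it gave an adjusted p. The muscle regulators Myod1, Myf5, Myog and Myf6, which turn on the myogenic programme, had 0 counts in all 8 libraries. So did Pax7, which marks muscle stem cells. Myh13, the superfast heavy chain of eye and larynx muscle, had 9 and 5 counts in WP, 17 and 11 in TP, 101 and 54 in WH, and 23 and 59 in TH.

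Markers of other tissues and cell types moved with some of these values. The 12 heart markers, of which Nppb was at 0 in all libraries, summed to 340 and 389 CPM in WP, 168 and 205 in TP, 253 and 236 in WH, and 101 and 126 in TH, with Myh6, the atrial and adult mouse heart myosin, at 957 and 1435 counts in WP and 232 and 410 in TH. Klhl41 and the summed heart markers were both highest in WP and lowest in TH. In TH against WH, 9 of 11 tested heart markers were lower and 2 higher. Of the 11, edgeR called 2, both lower, beside 0.599% of all genes. They were Actc1, cardiac actin, and the heart protease Corin (log2 fold change -1.78 and -2.31, edgeR adjusted p = 0.0108 and 0.03). Corin did not follow the sum, with 70 and 25 counts in WP but 242 and 201 in WH. The 9 members shared with heart summed to 302 to 613 CPM, at 366 and 376 in WP. The part of heart-type muscle, from any source, in the levels of these members was not tested. Slow skeletal fibres and heart also share Myh7, which had 289 and 434 counts in WP and 64 to 200 elsewhere. As the summed heart markers were, Myh7 was highest in WP and lowest in TH.

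The 6 markers of oesophagus-type stratified epithelium, all detected in at least 1 library, summed to 0.422 to 1.31 CPM in the PBS libraries and to 50.3 to 92.8 in the HDM libraries. Krt4, a keratin of such epithelium, had 407 and 385 counts in WH, 283 and 673 in TH and at most 1 in the PBS libraries. Krt13 had 109 and 98 in WH, 95 and 358 in TH and at most 3 in the PBS libraries. Sprr3 had 40 and 16 in WH, 11 and 62 in TH and at most 3 in the PBS libraries. The other markers did not all follow the sum. Krt5 had 4 and 15 counts in WP, 0 in TP, 6 and 39 in WH and 23 and 85 in TH. Krt14 and Krt6a had at most 10 in any library. Myh8 was also high under HDM, but unlike Krt4 it had 108 and 170 counts in TP. The 7 smooth muscle markers, all detected, summed to 252 and 244 CPM in WP, 168 and 174 in TP, 318 and 279 in WH, and 174 and 161 in TH, with Actg2 lower in TH than in WH (log2 fold change -1.86, adjusted p = 0.0372). The 10 thymocyte markers summed to 121 and 125 CPM in WP and 35.3 to 77.3 elsewhere. Among them, Rag1 had 189 and 371 counts in WP and 0 to 7 elsewhere. Rag2, Dntt and Arpp21 were likewise at 15 counts or less outside WP. Other thymocyte markers were not near 0 there. Cd4 had 287 and 340 counts in WP, 80 and 67 in TP, 248 and 416 in WH, and 119 and 420 in TH. Ptcra had 41 and 38 in WP, 27 and 23 in TP, 37 in each WH library, and 8 and 38 in TH. The 10 adipocyte markers summed to 235 and 283 CPM in WP and 94.2 to 176 elsewhere. In WP, Car3 held 1426 of the 2341 counts and 2160 of the 3464, and it had 276 to 820 elsewhere. Lep had 19 and 8 counts in WP and 0 elsewhere. Plin1 and Adipoq were highest in TH2, at 541 and 174 counts, beside 107 and 230, and 100 and 69, in WP. Fabp4 was highest in TH, at 674 and 407 counts beside 228 and 307 in WP. In TH against WH, 4 of 7 tested adipocyte markers were higher and 3 lower. Of the 7, edgeR called 1, Fabp4, higher (log2 fold change 2.06, adjusted p = 0.042), beside 1.84% of all genes. In TP against WP, edgeR called 1 of 10 tested heart, 3 of 10 thymocyte and 2 of 6 adipocyte markers, all lower in TP, beside 0.375% of all genes. DESeq2 called 3, 5 and 4 of them, all lower, and its share over all genes under PBS is not given here. Of 7 smooth muscle markers, edgeR called 0 (2 at an unadjusted p under 0.05) and DESeq2 called 0. Under HDM it called 0 of 7 thymocyte markers (0 at an unadjusted p under 0.05) and 0 of 4 oesophagus-type markers (1), and DESeq2 called 0 of the 4 and 2 to which it gave an adjusted p. The part of these tissues in the differences of the 35 genes was not tested.

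**Figure D4:**
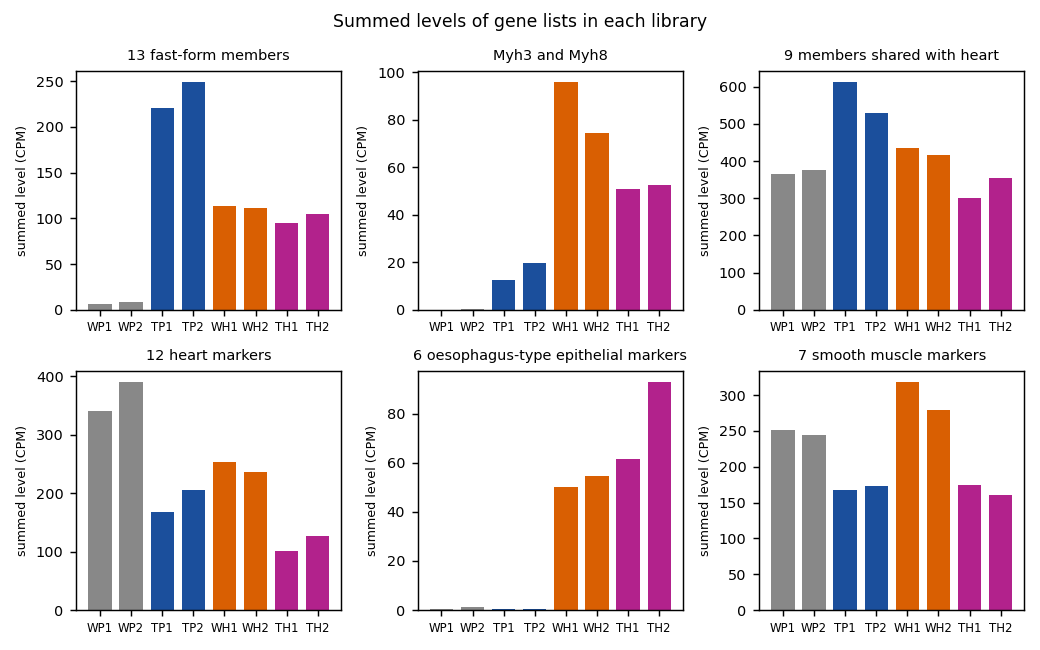
Summed levels (y axis, CPM) of 6 gene lists in each library (x axis), coloured by group. The fast forms are highest in TP (221 and 249 CPM), Myh3 and Myh8 in WH (95.8 and 74.3), the heart markers in WP (340 and 389), and the oesophagus-type markers in the HDM-treated libraries (50.3 to 92.8).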

How the data were processed

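RNA-Seq of lung was analyzed in 8 libraries, 2 from each pool of 4 mice. The RNA was amplified by the authors, who ran single-end sequencing of 50 cycles, used TopHat against mm10 and counted reads per gene over its coding region. They deposited raw read counts for 23469 genes, and versions, strandedness and sequencing batches are not given in the sources used here. The TopHat and DESeq names are in the submitters' processing notes too. Groups came from the sample titles. Symbols came from RefSeq for 23372 identifiers and lengths from GENCODE M21.

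Each comparison was fitted on its own 4 libraries with edgeR 4.0.16 in R 4.3.3 (quasi-likelihood test, TMM, filterByExpr with a count minimum of 10). P-values were adjusted over all genes tested by the Benjamini-Hochberg method, with a threshold of 0.05, and an SE is the log2 fold change over the square root of F. All p-values measure technical spread between libraries. CPM use TMM factors over 8 libraries. The floor was 3 counts over a group, and intervals are exact (Clopper-Pearson, 95%). Coding sequences were aligned with mafft 7.526. The fit was tested on simulated data. Alternatives were RLE factors, DESeq2 1.42.0, no filter, the replicate number as a block, all 8 libraries together, no ribosomal RNA or haemoglobin genes, a length offset (loess, span 0.5) with and without the block, leaving out each library, and a log2 fold change of at least 1. The 45S ribosomal RNA gene took 8.58% to 21.8% of a library's counts.

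The 35 members and the lists were chosen with earlier results of these data known. By rule, all members are accounted for, with counts per library for the heavy chains, the fast and slow pairs, Acta1, Ttn, Atp2a1, Pvalb, Ckm and Mb and the other members by range. From other lists, counts past the threshold and up to 3 of the most changed genes past it are named, with Ddah1, Xist and Ddx3y as checks. Neb, Tnnc2, Tnnc1, Mylpf, Myl1, Klhl41, Krt4, Myh6, Myh7, Myh13, Rag1, Sftpc and the regulators at 0 were given values, and Tpm1, Tpm2 and Gpd1 were named, after these had been seen. The counts of the other adipocyte, thymocyte and oesophagus-type markers were likewise given after they had been seen.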

Additional observations from a re-analysis of the deposited data

Results flagged for a closer look

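The genotype difference was positive under PBS and negative under HDM, with no overlap of the libraries, for 11 of the 29 members tested in both comparisons, beside 5.48% of 14514 genes tested in both. Both TP libraries lay above both WP libraries, and both TH libraries below both WH libraries, for Myh1, Myh2, Myh4, Myh3, Myh8, Acta1, Neb, Ttn, Xirp2, Trdn and Ckm. For Mylpf and Tnnc2, 2 members, the TG libraries lay above under both treatments, beside 4.93% of the genes. Among the genes whose libraries lay above under PBS, the share that lay below under HDM was 26.9% over all genes (795 of 2957), and 11 of 21 members did. The difference between treatments was not tested, since the PBS libraries had a part in choosing these genes, and the direction under PBS follows from that choice for most of them.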

How the results depend on the processing

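In TH against WH, the count of members past the threshold was 0 with RLE factors, without ribosomal RNA and haemoglobin genes, with a length offset and with a minimum size of 1 for the log2 fold change. It was 3 with DESeq2, 2 of 34 with no filter on low counts, 2 with all 8 libraries fitted together, and 0 (without either WH library) to 4 (without TH2) when a library was left out. The count over all genes, 370 in the report (279 higher and 91 lower), was 922 with DESeq2, 1055 of 18554 with no filter, 771 (440 and 331) with all 8 libraries, 174 (96 and 78) with the length offset, and from 6 (without WH1) to 1595 (without TH2) when a library was left out, with 612 without TH1 and 20 without WH2. The median over the members, -0.45, ranged from -0.71 (without TH2) to -0.14 (without TH1), with -0.31 without WH1 and -0.37 without WH2, and was -0.46 to -0.59 in the alternatives that kept all libraries. Atp2a1 ranged from -1.30 (without WH2) to 0.12 (without WH1). Of 154 values with an adjusted p for the 13 members with full statistics, 139 kept their direction and side of the threshold. DESeq2 gave no adjusted p for 15 members, Myh3 and Tnni2 among them. Of the other 19 tested members, 12 changed sign in at least 1 alternative, and Actn2 was called without TH2.

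In TP against WP, the median over the members, 2.85, was 3.04 without ribosomal RNA and haemoglobin genes, 2.94 with the length offset, and 3.12 to 3.50 when a library was left out. The cause of these changes was not tested.

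The replicate numbers did not pair the libraries, as deviations of same-numbered libraries from their group means correlated at -0.0224 under HDM and -0.00681 under PBS. With the replicate block, 1 member and 625 genes in all were called in TH against WH, and 2 members with the length offset and the block together. The median over the members in TP against WP was 2.74 with the block.

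With 2 libraries of 1 pool per group, the tests cover technical spread only. TH1 was the shallowest library, and the part of its depth in these changes was not tested.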
